A study of Mus musculus with 12 samples.

Results

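The replication-dependent histone genes encode the core histones H2A, H2B, H3 and H4, around which DNA is wrapped in the nucleosome, and the linker histone H1. They were taken as every gene whose symbol in the authors' tables starts with Hist1h, Hist2h, Hist3h or Hist4h. This gave 70 of 48526 genes. Of the 70 genes, 6 were of class H1, 20 of H2A, 19 of H2B, 12 of H3 and 13 of H4. By symbol, 56 belonged to Hist1 on mouse chromosome 13, 10 to Hist2 on chromosome 3, 3 to Hist3 on chromosome 11, and Hist4h4 stood alone on chromosome 6. The Hist1 genes lay in a cluster except for the pseudogene Hist1h2al, which lay apart at chr13:51202727-51203065. In the GENCODE annotation 67 were protein coding and 3 were pseudogenes (Hist3h2bb-ps, Hist1h2aj and Hist1h2al). The symbols also take in genes known as testis histones (Hist1h1t, Hist1h2ba and Hist1h2aa), so not every gene with such a name is tied to replication.

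RNA was measured in the cortex of 12 untreated mice on a C57Bl/6 background. There were 3 mice labelled TAU58/2 transgenic and 3 non-transgenic controls at 10 months of age, and 3 labelled TAU58/2 transgenic and 3 non-transgenic controls at 3 months. The TAU58/2 line carries mutant human tau (P301S) under a neuronal Thy1 promoter, so the transgene is driven in neurons while the RNA came from the whole tissue. In such bulk RNA, fewer cells of a type and less RNA per cell cannot be told apart. Total RNA was depleted of ribosomal RNA and not selected for poly(A). That bears on these genes, because their mRNAs normally carry no poly(A) tail.

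Replication-dependent histone mRNAs end in a conserved stem-loop instead of a poly(A) tail. The stem-loop binding protein SLBP and the U7 snRNP direct the cut after it, and the transcripts build up in S phase and are degraded when DNA synthesis stops. Most cells of the adult cortex do not divide. Neurons supply new nucleosomes mainly from variant histone genes, which are transcribed outside S phase, and some Hist genes also give polyadenylated transcripts in differentiated cells.

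The stem-loop is the feature that sets these transcripts apart, so it is shown for 5 of the genes with the highest levels. The letters are from the GENCODE transcripts of GRCm38, as DNA, 5′ to 3′ on the gene's own strand, and the 16 bases of stem, loop and stem are in capitals.
Hist1h1c (chr13:23739507-23739532, plus strand): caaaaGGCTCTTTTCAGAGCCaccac
Hist3h2a (chr11:58955167-58955192, plus strand): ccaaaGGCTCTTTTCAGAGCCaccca
Hist1h2bf (chr13:23573760-23573785, minus strand): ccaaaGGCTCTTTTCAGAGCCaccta
Hist1h4i (chr13:22040961-22040986, minus strand): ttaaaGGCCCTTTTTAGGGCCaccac
Hist1h4h (chr13:23531453-23531478, plus strand): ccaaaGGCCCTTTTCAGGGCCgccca
The search was for the histone 3′ stem-loop, a stem of 6 bases, a loop of 4 bases and the second strand of the stem, with the conserved bases of each held fixed, on the transcript strand after the coding part. It found the pattern in 46 of the 70 genes. The other transcripts of the annotation were searched over their whole length and counted per transcript, and 266 of 141689 held it (0.188%). The 2 figures thus differ in unit and in the region searched. All 46 had 6 of 6 stem pairs, most of which the fixed bases of the pattern make certain. The form printed for Hist1h1c, Hist3h2a and Hist1h2bf was the most common, with 26 genes. The form of Hist1h4h was found in 7 genes and that of Hist1h4i in 2.

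The transcript models of 24 genes did not hold the pattern. In 17 of them the model stopped within 50 bases of the end of the coding part, and 3 had no coding part. The remaining 4 had a longer stretch after the coding part, among them Hist1h2bc, whose model is spliced over 2 exons, and Hist2h2be. In 23 genes the stem-loop lay within 100 bases of the model's end, and in 23 the model ran on further. Hist1h1c ran on for 840 bases, Hist3h2a for 1643 and Hist1h4i for 330, against 29 in Hist1h2bf and 46 in Hist1h4h. The annotation thus holds both short transcripts that end at the stem-loop and longer ones that read past it.

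Many of the coding parts are near copies of each other, which bears on every value below. The first 90 coding bases of Hist1h2bc and of 4 other H2B genes are shown with each base that differs from Hist1h2bc in capitals (GENCODE transcripts, GRCm38).
Hist1h2bc (chr13:23684232-23684321, plus strand): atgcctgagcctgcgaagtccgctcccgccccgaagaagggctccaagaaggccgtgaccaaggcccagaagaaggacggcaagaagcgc
Hist1h2bf (chr13:23574101-23574190, minus strand): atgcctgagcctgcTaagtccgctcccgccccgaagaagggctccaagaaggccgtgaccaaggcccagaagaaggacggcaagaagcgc
Hist1h2bg (chr13:23571433-23571522, plus strand): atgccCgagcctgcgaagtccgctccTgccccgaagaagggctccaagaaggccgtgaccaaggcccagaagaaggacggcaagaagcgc
Hist1h2bh (chr13:23543263-23543352, minus strand): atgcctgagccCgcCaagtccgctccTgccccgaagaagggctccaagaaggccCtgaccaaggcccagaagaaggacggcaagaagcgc
Hist2h2be (chr3:96221166-96221255, plus strand): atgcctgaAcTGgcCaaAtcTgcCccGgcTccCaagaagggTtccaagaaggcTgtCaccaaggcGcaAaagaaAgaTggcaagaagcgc
Over the whole coding part of 381 bases, Hist1h2bg differed from Hist1h2bc at 5 bases, Hist1h2bf and Hist1h2be at 6, Hist1h2bh at 7, Hist3h2ba at 38 and Hist2h2be at 50. Within a class, the median identity between coding parts of equal length was 96.4% in H2A, 97.1% in H2B, 97.6% in H3 and 93.9% in H4. A read from such a stretch can fit several genes, and how the authors' counting placed it is not given in the sources used here. Single members of the Hist1 cluster are therefore uncertain.

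The values are FPKM, fragments scaled to transcript length and library size, so levels can be compared between genes of different length. A library's total lay between 125933 and 158077 FPKM, with 12828 to 13914 genes above 0. Absolute depth is unknown. Relative depth was estimated from the most common ratio of values among genes of low FPKM in both libraries. It ranged from 1.07 to 1.37 times that of 10-month control library 1. Only 7.80% to 11.5% of those low genes lay at or next to that ratio, so the estimate is rough. An exact 0 need not mean that a gene was silent: of 4390 genes whose median was 5 FPKM or more, 40 to 98 were at 0 in a given library. At 3 months Mapt, the mouse tau gene to which human tau reads can align, had 47.6, 47.5 and 43.3 FPKM in libraries with the transgenic label and 6.64, 12.0 and 7.47 FPKM in controls. At 10 months it had 42.6, 12.4 and 3.31 FPKM in libraries with the transgenic label and 42.7, 8.13 and 9.08 FPKM in controls. Thy1 likewise separated the groups at 3 months and overlapped at 10 months, with 172, 114 and 159 FPKM under the transgenic label and 115, 314 and 176 FPKM in controls. The 10-month labels are therefore not borne out by these genes, and every genotype direction at that age rests on the labels. The series describes the 3 libraries of a group as biological replicates. Library 1 of the 10-month mice labelled transgenic also held 11228 FPKM of Gh, the pituitary growth hormone gene, against at most 37.4 FPKM in any other library.

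The histone genes were a small part of this RNA. Together they made up 33.1 ± 8.2 FPKM in 10-month libraries labelled transgenic and 31.9 ± 11.6 FPKM in 10-month controls (SD, n = 3 each). At 3 months they made up 34.3 ± 9.9 FPKM in libraries labelled transgenic and 41.2 ± 15.1 FPKM in controls (SD, n = 3 each). In every pair of groups the difference was smaller than the spread within them. The share of all FPKM in a library lay between 0.0154% and 0.0413%.

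**Figure D1:**
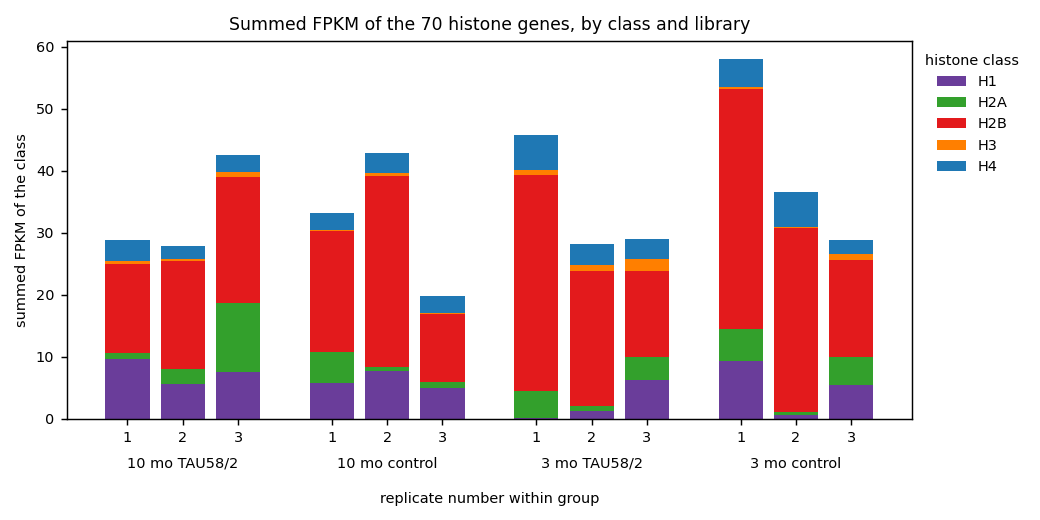
Stacked bars give the summed FPKM of the H1, H2A, H2B, H3 and H4 genes in each of the 12 libraries, grouped by age and genotype label. The tallest bar is 3-month control library 1 with 58.1 FPKM and the lowest is 10-month control library 3 with 19.8 FPKM, and H2B is the largest part of every bar.

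H2B genes carried most of that sum. They held 63.5% of the summed mean FPKM, H1 15.3%, H4 9.87%, H2A 9.53% and H3 1.81%. H3 was the lowest class, and its highest gene, Hist2h3c2, averaged 0.190 FPKM over the 12 libraries. By cluster, Hist1 held 82.3%, Hist3 12.8%, Hist2 4.75% and Hist4 0.134%. The Hist3 share was 8.41% without 3-month library 1 labelled transgenic, which had 22.3 FPKM of Hist3 genes.

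A few genes made up nearly all of it. Hist1h2bc alone held 42.5% of the summed mean, the 3 highest genes 64.8% and the 9 highest 85.2%. Of the 70 genes, 63 were above 0 in at least 1 library and 6 in all 12 (Hist1h2bf, Hist1h4i, Hist1h4h, Hist1h2ba, Hist1h2bk and Hist4h4). Only 13 reached 1 FPKM in any library, 8 had a mean of at least 1 FPKM, and 59 had a mean below 0.5 FPKM. A library listed between 20 and 37 of the 70 above 0, with the fewest in 10-month library 2 labelled transgenic and the most in 3-month control library 1.

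**Figure D2:**
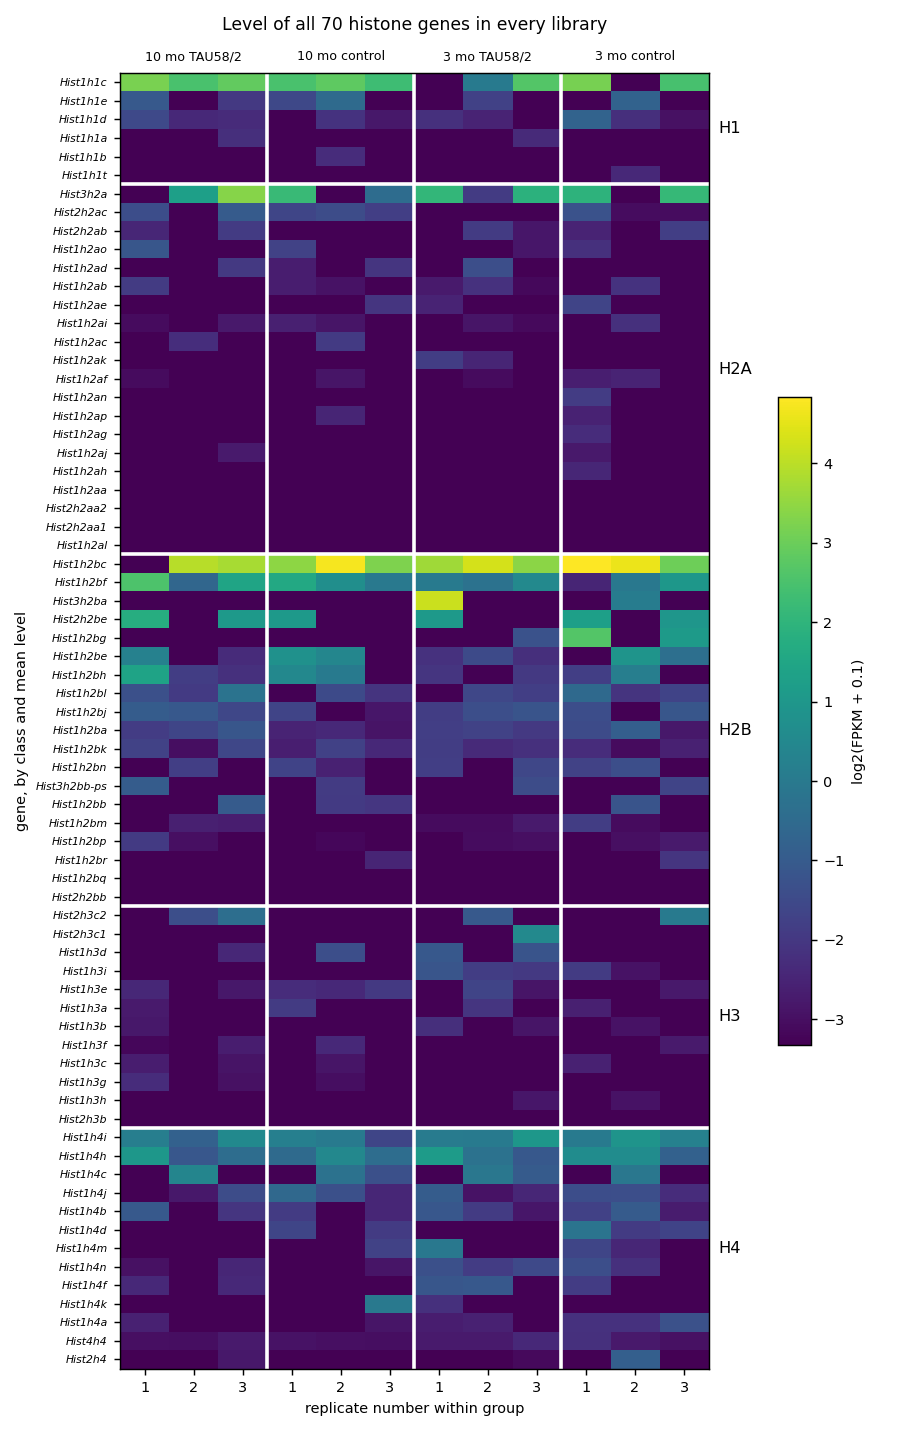
Each row is a histone gene, ordered by class and mean level, and each column a library, coloured by log2(FPKM + 0.1). Hist1h2bc, Hist1h1c and Hist3h2a form the brightest rows, each with dark cells where a library lists the gene at 0, while most rows are dark throughout.

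Hist1h2bc encodes an H2B protein and lies at chr13:23684199-23692908 (GRCm38). It had 0, 15.6 and 13.4 FPKM in 10-month libraries labelled transgenic, against 10.9, 26.1 and 9.54 FPKM in 10-month controls. In the 3-month mice the values were 12.6, 19.9 and 10.5 FPKM in libraries labelled transgenic, against 28.5, 23.9 and 8.03 FPKM in controls. It was thus at 8 FPKM or more in 11 libraries and listed at 0 in the remaining one, and the groups overlapped at both ages. The library that lists it at 0, number 1 of the 10-month mice labelled transgenic, is the one with the high Gh value. Of the 18 other H2B genes, 6 had their highest value in that library, among them Hist1h2bf with 5.80 FPKM and Hist1h2bh with 2.53 FPKM, and 8 were listed at 0 there. Hist1h2bg was among those at 0, as it was in all 6 of the 10-month libraries. Hist1h2be had 1.10 FPKM in that library and its highest value, 1.75 FPKM, in 3-month control library 2. Of closer copies of Hist1h2bc, Hist1h2bj differs at 4 coding bases and had its highest value, 0.422 FPKM, in that library. Hist1h2bq and Hist1h2br differ at 2 each and were at 0 in it. The 6 with their highest value there also include Hist2h2be, which differs at 50 coding bases, and the pseudogene Hist3h2bb-ps. The share of all genes with their highest value in that library is not given here, so the count is read as no result. Whether reads moved between copies was not tested.

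Hist1h1c encodes a linker histone, which binds the DNA where it enters and leaves the nucleosome, and lies at chr13:23738808-23740367. It had 9.08, 5.51 and 7.26 FPKM in 10-month libraries labelled transgenic, against 5.50, 6.87 and 4.86 FPKM in 10-month controls. At 3 months it had 0, 0.929 and 6.17 FPKM in libraries labelled transgenic, against 8.84, 0 and 5.41 FPKM in controls. All 6 of the 10-month values lay between 4.86 and 9.08 FPKM, while 3 of the 3-month values were below 1 FPKM, 2 of them at 0. The other H1 genes were far lower: Hist1h1e averaged 0.172, Hist1h1d 0.121, Hist1h1a 0.0174, Hist1h1b 0.00858 and the testis gene Hist1h1t 0.00772 FPKM over the 12 libraries.

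Hist3h2a encodes an H2A protein and lies at chr11:58954685-58956830. It had 0, 2.31 and 10.2 FPKM in 10-month libraries labelled transgenic, against 4.48, 0 and 0.636 FPKM in 10-month controls. Libraries labelled transgenic had 4.10, 0.169 and 3.67 FPKM at 3 months, against 3.80, 0 and 4.32 FPKM in 3-month controls. Each group holds a library at or near 0 beside at least 1 of 3 FPKM or more. Its model overlaps Trim17 on the same strand, with which it shares 32.1% of its 31-base words, and Gm44313 on the other strand, so part of its value may belong to them. The 19 other H2A genes had means of 0.144 FPKM or less, with Hist2h2ac the highest of them.

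Among the remaining H2B genes, Hist1h2bf was the only one of the 12 highest that was above 0 in every library besides the 2 H4 genes. It had 5.80, 0.551 and 2.64 FPKM in 10-month libraries labelled transgenic, against 2.94, 1.52 and 0.889 FPKM in 10-month controls. In the 3-month mice the values were 0.931, 0.746 and 1.33 FPKM in libraries labelled transgenic, against 0.0815, 0.868 and 1.88 FPKM in controls. Its highest values were in 10-month libraries and its lowest in 3-month control library 1, and the groups overlapped at both ages. Hist2h2be, known for high expression in olfactory neurons, had 3.28, 0 and 2.03 FPKM in 10-month libraries labelled transgenic, against 2.00, 0 and 0 FPKM in 10-month controls. At 3 months it had 2.00, 0 and 0 FPKM in libraries labelled transgenic, against 2.31, 0 and 1.86 FPKM in controls. Every value was thus either 0, in 6 libraries, or between 1.86 and 3.28 FPKM.

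Hist3h2ba and Hist1h2bg owed their means to few libraries. Hist3h2ba was listed at 0 in 10 libraries, at 18.2 FPKM in 3-month library 1 labelled transgenic and at 0.971 FPKM in 3-month control library 2. Hist1h2bg was listed at 0 in 9 libraries, at 0.312 FPKM in 3-month library 3 labelled transgenic, and at 6.14 and 2.06 FPKM in 3-month control libraries 1 and 3. Both are H2B genes, and in both a mean over the group describes no single library.

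Hist1h2be had 1.10, 0 and 0.10 FPKM in 10-month libraries labelled transgenic, against 1.66, 1.25 and 0 FPKM in 10-month controls. Libraries labelled transgenic had 0.123, 0.254 and 0.115 FPKM at 3 months, against 0, 1.75 and 0.697 FPKM in 3-month controls. Its model overlaps Hist1h1e on the same strand, so the 2 values may not be separate measurements. Hist1h2bh had 2.53, 0.180 and 0.121 FPKM in 10-month libraries labelled transgenic, against 1.30, 0.937 and 0 FPKM in 10-month controls. In the 3-month mice the values were 0.139, 0 and 0.154 FPKM in libraries labelled transgenic, against 0.185, 1.01 and 0 FPKM in controls. In both genes the highest value of each group lay above the lowest of every other.

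The H4 genes Hist1h4i and Hist1h4h varied least among the tested histone genes. Hist1h4i had 1.03, 0.479 and 1.35 FPKM in 10-month libraries labelled transgenic, against 1.04, 0.921 and 0.225 FPKM in 10-month controls. At 3 months it had 0.944, 0.907 and 1.90 FPKM in libraries labelled transgenic, against 0.906, 1.75 and 1.11 FPKM in controls. The groups overlapped at both ages, and 10-month control library 3 was the lowest. Hist1h4h had 1.88, 0.362 and 0.655 FPKM in 10-month libraries labelled transgenic, against 0.610, 1.29 and 0.649 FPKM in 10-month controls. Libraries labelled transgenic had 2.14, 0.735 and 0.376 FPKM at 3 months, against 1.46, 1.45 and 0.482 FPKM in 3-month controls. These 2 genes were above 0.2 FPKM in all 12 libraries, which held for no other histone gene. Hist1h4c, the last of the 12 highest genes, had 0, 1.21 and 0 FPKM in 10-month libraries labelled transgenic, against 0, 0.748 and 0.298 FPKM in 10-month controls. Its 3-month values were 0, 0.833 and 0.409 FPKM under the transgenic label and 0, 0.851 and 0 FPKM in controls, so 6 of the 12 libraries list it at 0.

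**Figure D3:**
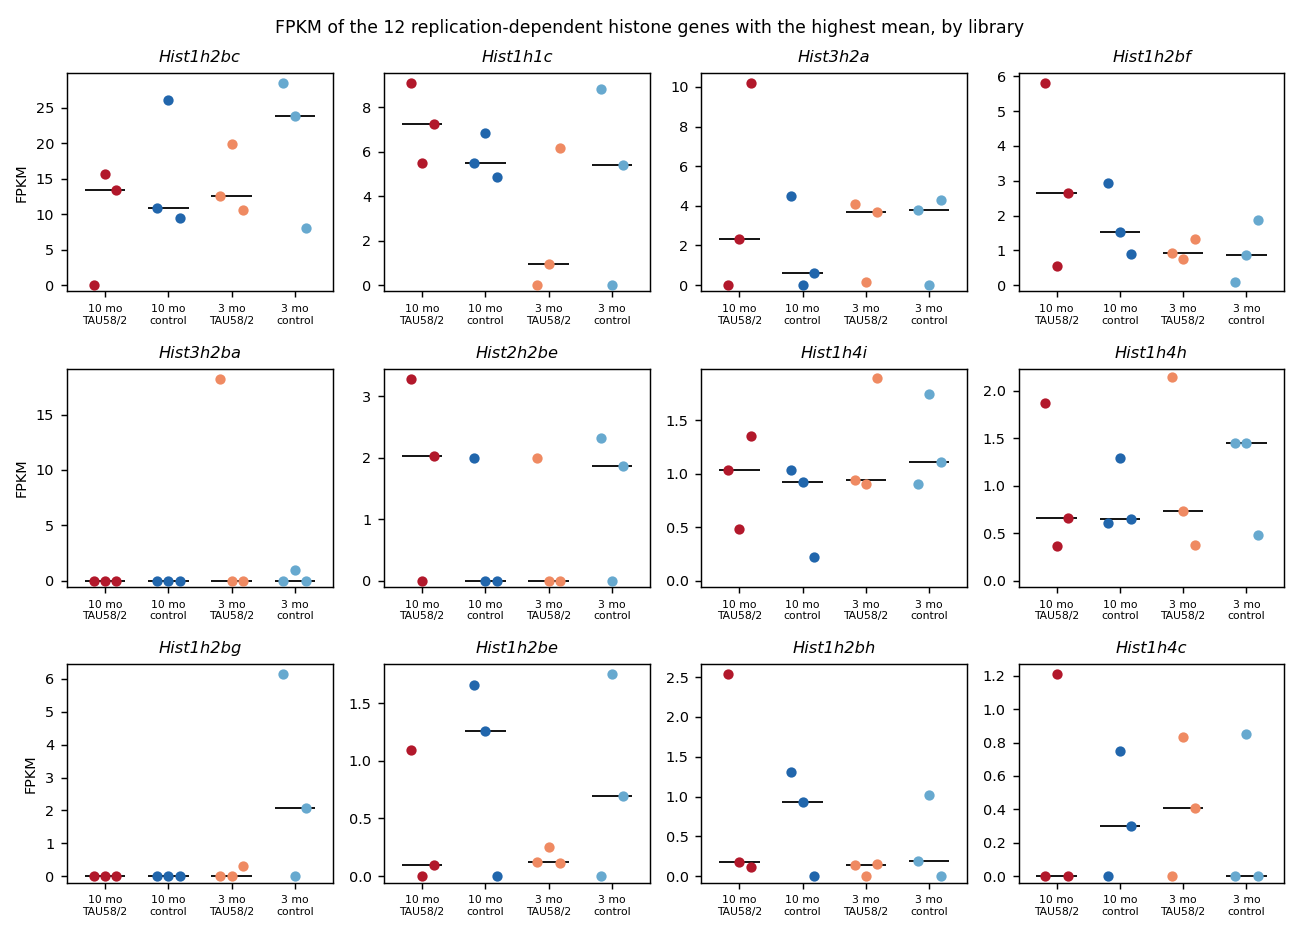
Each panel shows a gene, with 3 points per group for the libraries and a line at the group's median, in FPKM on a linear axis. Points at 0 appear in 9 of the 12 panels, and in every panel the groups overlap.

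Of the 70 genes, 9 reached a mean of 1 FPKM in at least 1 group and were tested with limma on log2(FPKM + 0.1), 12.9%, against 20.3% of all genes in the tables. The 9 were Hist1h2bc, Hist1h1c, Hist3h2a, Hist1h2bf, Hist2h2be, Hist3h2ba, Hist1h2bg, Hist1h4i and Hist1h4h. The other 61, Hist1h2be, Hist1h2bh and Hist1h4c among them, fell under that level and have no test. Of the 108 values of the 9 tested genes, 31 were at 0 (28.7%). Over the 7554 tested genes with means in the same range, 0.709 to 14.9 FPKM, 7.09% of values were 0. Only the ends of that range were matched, not the levels within it. Hist3h2ba, with 10 values at 0, and Hist1h2bg, with 9, each passed the filter through a single group. The share of zeros is therefore not read as a trait of the histone genes. The residual SD of the 9 genes on the log2 scale ranged from 0.705 in Hist1h4i to 2.91 in Hist3h2a. Its median was 2.18, against a median of 0.730 over all tested genes, which were not matched for level. The same zeros and filter bear on this SD, so it is not read as a trait of the histone genes either. The precision for these genes was accordingly low.

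The first comparison asks how the transgene label bears on histone expression at 10 months. None of the 9 histone genes passed the threshold of 0.05 on the adjusted p of limma, nor an unadjusted p under 0.05, where 0.0102% and 4.40% of the 9846 genes tested did. The fitted log2 fold change was above 0 in 5, below 0 in 2 and 0 in the 2 listed at 0 in all 6 libraries. The median was 0.32, against 0.01 over all genes tested. For Hist1h2bc the log2 fold change was -2.34 with an SE of 1.60 (limma adjusted p = 0.969), and it was 0.05 without the library that lists the gene at 0. Hist2h2be had 1.70 ± 1.98, Hist3h2a 0.96 ± 2.16, Hist1h4i 0.45 ± 0.65 and Hist1h4h -0.03 ± 0.79 (log2 fold change and SE). Without single libraries Hist3h2a ranged down to -0.50 and Hist1h4h up to 0.43, and Hist1h4i was -0.13 without 10-month control library 3. With standard errors of this size the fit cannot tell a several-fold difference from none in most of these genes.

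At 3 months, where Mapt and Thy1 do not overlap between the labels, again none of the 9 passed the adjusted threshold, met by 0.0406% of all genes tested with limma. None had an unadjusted p under 0.05 either, against 3.39%. Of the 9, 3 had a log2 fold change above 0 and 6 below 0, with a median of -0.22 against 0.02 over all genes. Hist1h2bg had the smallest p, with a log2 fold change of -2.79 and an SE of 1.37 (limma adjusted p = 1.00), and that value rests on the 2 control libraries at 2 FPKM or more. It passed the filter only through these 3-month controls, so its place as the smallest p is no support for a difference. Hist2h2be had -1.50 ± 1.98, Hist1h1c -0.98 ± 1.72, Hist3h2ba 1.37 ± 1.86, Hist1h2bf 0.61 ± 1.00 and Hist3h2a 0.44 ± 2.16 (log2 fold change and SE). Hist1h1c was 0.22 without 3-month control library 1 and 0.58 without 3-month library 1 labelled transgenic. Hist1h2bf was -0.36 without 3-month control library 1, and Hist3h2a was -1.35 without 3-month control library 2, which lists it at 0.

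**Figure D4:**
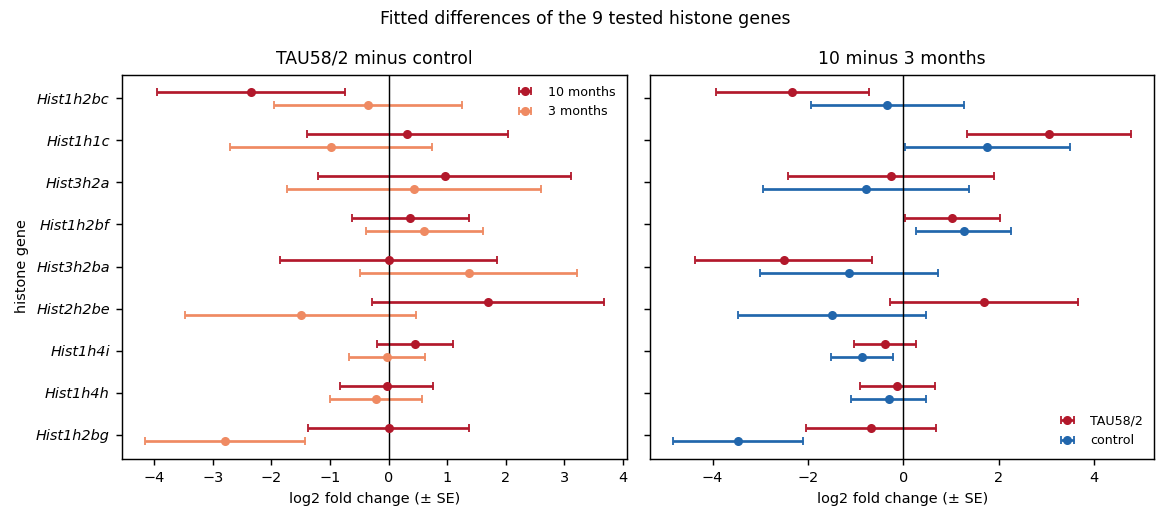
Points are limma log2 fold changes on log2(FPKM + 0.1) and bars their standard errors, for the 9 tested genes, on the left by genotype label at each age and on the right by age within each label. No point passes the adjusted threshold, and the bars are shortest for Hist1h4i and Hist1h4h.

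Whether the genotype difference itself changed with age was tested as an interaction in limma. None of the 9 passed the adjusted threshold, against 0.0508% of all genes, and none had an unadjusted p under 0.05, against 3.32%. The smallest p was that of Hist1h2bg, whose interaction was 2.79 with an SE of 1.93 on the log2 scale (limma adjusted p = 0.987). Hist2h2be had 3.20 ± 2.79, Hist1h2bc -2.0 ± 2.27 and Hist3h2ba -1.37 ± 2.63 (SE). Without 10-month library 1 labelled transgenic the interaction of Hist1h2bc was 0.40. Hist1h2bg is listed at 0 in all 6 of the 10-month libraries, so its interaction is its 3-month difference with the sign reversed and has the same limit.

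Age was compared within each label, 10 months minus 3 months. The ages come from separately deposited tables, so age and table cannot be told apart. In the libraries labelled transgenic none of the 9 passed the adjusted threshold of limma, against 0.0203% of all genes, nor an unadjusted p under 0.05, against 4.31%. Hist1h1c had a log2 fold change of 3.07 with an SE of 1.72 (limma adjusted p = 0.974), and the 3-month group holds libraries at 0 and 0.929 FPKM. Hist1h2bf had 1.03 ± 1.00, Hist1h2bc -2.33 ± 1.60 and Hist3h2ba -2.51 ± 1.86 (SE). Without the 10-month library that lists it at 0, Hist1h2bc was 0.066. In controls none passed the adjusted threshold, against 0.0305% of all genes, and 1 had an unadjusted p under 0.05, against 4.19%. That gene was Hist1h2bg, with a log2 fold change of -3.47 and an SE of 1.37 (limma adjusted p = 0.994). It was listed at 0 in all 3 of the 10-month controls. It passed the filter only through the 3-month controls, the other side of this comparison, so its small p is no support for a difference. Hist1h1c had 1.77 ± 1.72, Hist1h2bf 1.27 ± 1.00 and Hist1h4i -0.86 ± 0.65 in controls (SE). Hist1h1c was -0.28 without 3-month control library 2, which lists it at 0. The median of the 9 was -0.26 in libraries labelled transgenic, against 0.05 over all genes, and -0.78 in controls, against 0.06 over all genes. However, Hist1h2bg, Hist3h2ba, Hist1h4i and Hist1h4h reached a mean of 1 FPKM only in 3-month groups. That way of entering the test favours age differences below 0, so these medians are read as no result about the histone genes.

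Because 61 genes had no test, all 63 genes above 0 in any library, tested or not, were also compared by whether the 3 libraries of a group all lay above or below those of another. At 10 months this held for 3 of the 63 (4.76%), against 5.62% of the 21362 genes so listed. At 3 months it held for 3 (4.76%), against 5.72% of all. For age it held for 2 genes (3.17%) in libraries labelled transgenic, against 6.29%, and for 2 (3.17%) in controls, against 6.65%. None of the tested genes was among them. Each share rests on 2 or 3 genes and is read as no result about the histone genes.

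Hist1h2ba, a testis H2B gene named after its values were seen, was among them. It had 0.174, 0.223 and 0.351 FPKM in 10-month libraries labelled transgenic, against 0.0770, 0.0922 and 0.0340 FPKM in 10-month controls. At 3 months the groups overlapped, with 0.186, 0.203 and 0.154 FPKM in libraries labelled transgenic and 0.268, 0.438 and 0.0430 FPKM in controls. Of the 53 histone genes with a p-value at 10 months in the authors' deposited table, 3 had one under 0.05, Hist1h2ba, Hist1h2bj and Hist2h3c2, against 4.14% of all genes with a p-value. At 3 months 2 of 60 in the authors' deposited table did, Hist1h1e and Hist1h2bk, against 3.22% of all. The lowest q-value of any histone gene in the authors' deposited table was 0.854 at 10 months and 0.904 at 3 months. Both counts are near the share of all genes.

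How much sequence a gene shares with others was set beside its level. A shared stretch was counted as the percent of 31-base words of a gene's transcript model that also occur in another gene, on either strand. Genes annotated over the same place on the chromosome count as other genes here. The median over the 70 genes was 61.0%. The 23 genes that share at least 80% had means of at most 0.247 FPKM, with a median of 0.0175 FPKM, and none was tested. The 47 that share less had a median of 0.0903 FPKM and included all 9 tested genes, of which Hist1h2bf shares most, 73.5%, and Hist2h2be least, 2.82%.

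Of the 7 genes at 0 in all 12 libraries, 6 shared at least 80%. They were Hist2h2aa1, Hist2h2aa2, Hist2h3b and Hist2h2bb with 100% each, Hist1h2bq with 98.2% and Hist1h2al with 81.9%. Each of these genes at 100% is covered by a model on the other strand of the same place. These are Gm20633 for Hist2h2aa1, Gm20632 for Hist2h2aa2, and Gm20628 for Hist2h3b and Hist2h2bb. On the same strand, Hist2h2aa1 also overlaps Gm20634 and Hist2h2bb overlaps Gm42743. The 100% of these genes is therefore no measure of copies elsewhere. The exception was the testis gene Hist1h2aa with 28.3%. Only Hist2h3c1 shared 98% or more and was above 0 anywhere, at 1.33 FPKM in 3-month library 3 labelled transgenic. It shares 100% with Gm20634, which overlaps it on the same strand. Over the 70 genes, mean FPKM and shared words had a Spearman rho of -0.41. Longer models shared fewer words (rho of -0.56), and mean FPKM and model length had a rho of 0.24. The points share their libraries and, for near copies, their reads, so these are descriptions, and whether the authors' placing of reads set the zeros was not tested.

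**Figure D5:**
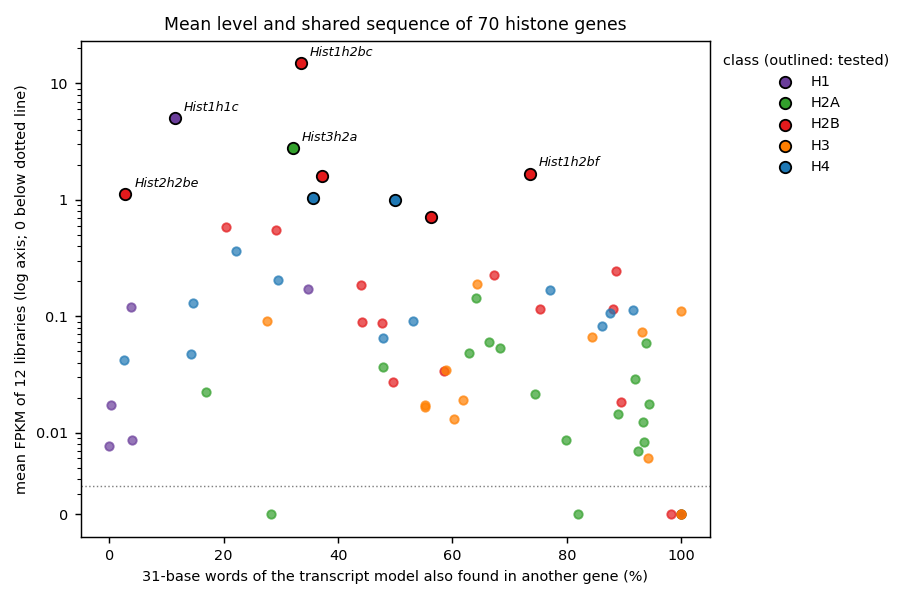
Each point is a histone gene, with the percent of its 31-base words found in another gene on the x axis and its mean FPKM over 12 libraries on a log y axis, genes at 0 drawn below the dotted line. The outlined tested genes all lie below 80% shared, and the points at 100% lie at 0 except for Hist2h3c1.

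Level was also set beside how far the annotated transcript runs. The 23 genes whose models run more than 100 bases past the stem-loop had a median mean of 0.129 FPKM, and 5 were tested. The 23 whose models end within 100 bases had a median of 0.0534 FPKM, and 2 were tested, Hist1h2bf and Hist1h4h. The 24 without the pattern had a median of 0.0179 FPKM, with Hist1h2bc and Hist2h2be tested. FPKM per gene does not tell which end a transcript used, so the split between stem-loop ends and longer ends was not measured here.

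H2A and H2B genes often lie head to head and share a promoter. In 14 pairs the annotated starts lay between 173 and 306 bases apart, each an H2A with an H2B gene. The H2B gene was the higher of the pair in 12 of them. In several of these both genes lay near 0. Hist1h2bm averaged 0.0338 FPKM beside 0.00833 FPKM for Hist1h2aj, which is annotated as a pseudogene. Hist1h2br averaged 0.018 FPKM beside 0.012 FPKM for Hist1h2ap, each above 0 in 2 libraries. Hist1h2bc averaged 14.9 FPKM beside 0.0225 FPKM for Hist1h2ac, which was above 0 in 2 libraries. Hist2h2be averaged 1.12 FPKM beside 0.144 FPKM for Hist2h2ac, and Hist1h2bf 1.68 FPKM beside 0.0534 FPKM for Hist1h2ad. The exceptions were Hist3h2a, at 2.81 FPKM beside 0.0897 FPKM for the pseudogene Hist3h2bb-ps, and Hist1h2ao, at 0.0593 FPKM beside Hist1h2bq at 0.

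The stretch between Hist1h2ac and Hist1h2bc, the pair that holds the highest histone gene, is shown as an example (RefSeq, GRCm38.p6). Capitals mark, on either strand, the CCAAT box, the TATAAA box and the octamer ATTTGCAT, motifs common in histone promoters.
Hist1h2ac to Hist1h2bc (chr13:23683960-23684198, minus strand): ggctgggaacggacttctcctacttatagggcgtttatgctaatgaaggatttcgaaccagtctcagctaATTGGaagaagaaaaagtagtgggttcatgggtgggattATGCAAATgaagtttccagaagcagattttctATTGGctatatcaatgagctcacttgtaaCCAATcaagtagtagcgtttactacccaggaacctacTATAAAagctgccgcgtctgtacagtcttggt
It holds CCAAT 3 times, ATTTGCAT 1 time and TATAAA 1 time. In the 62 genes matched to a RefSeq promoter of 250 bases before to 50 after the start, CCAAT was found in 53, against 37.4% of all 32851 promoters. It was in every H1, H2A, H2B and H3 promoter matched and in 3 of 12 H4 promoters. Hist1h4i was among the H4 genes without these letters in the window. TATAAA was found in 35 of the 62, against 13.6% of all promoters. ATTTGCAT, the octamer, was found in 7 of 18 H2A and 6 of 16 H2B promoters and in none of the H1, H3 and H4 promoters, against 1.74% of all.

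Genes of S phase and mitosis give the context for these levels. Of 18 listed, 2 were tested and neither passed in any comparison. Pcna, the DNA clamp that also serves repair, averaged 15.7 ± 2.6 FPKM (SD, n = 12). Mcm7 averaged 0.670 ± 0.667 FPKM (SD, n = 12), and Mcm4, like Mcm7 a subunit of the replicative helicase, was at 0 in 8 libraries and at most 1.90 FPKM. The proliferation marker Mki67 and Cdc20 were listed at 0 in all 12 libraries, and Top2a was above 0 in 2, at most 0.0525 FPKM. Other helicase subunits were uneven between libraries: Mcm6 was above 0 in 10 libraries, at most 1.66 FPKM, and Mcm5 in 4, at most 1.81 FPKM. The median mean of the 18 genes was 0.0123 FPKM. A 0 in all 12 libraries is no measure of absence in these tables, since Upf1, a helicase of mRNA decay used by every cell, is also listed at 0 in all 12.

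The cortex markers were present: of 14 genes of neurons, astrocytes and oligodendrocytes, 14 averaged at least 1 FPKM, led by Camk2a at 348 ± 97 FPKM (SD, n = 12). Their sum ranged from 891 to 1000 FPKM in 10-month libraries labelled transgenic, 931 to 995 in 10-month controls, 911 to 1076 in 3-month libraries labelled transgenic and 648 to 1031 in 3-month controls. Of 4 genes of oligodendrocyte precursors, the main dividing cells of the adult cortex, Pdgfra averaged 3.16 ± 1.38 FPKM (SD, n = 12), while Cspg4 was at 0 in 9 libraries and Olig2 in 2. Olig1 was at 0 in 9 libraries and had 32.3 and 45.7 FPKM in 10-month libraries 2 and 3 labelled transgenic and 41.9 FPKM in 3-month library 3 labelled transgenic.

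Variant histone genes, which are transcribed throughout the cell cycle, had a median mean of 11.0 FPKM over the 11 listed, and 10 averaged 1 FPKM or more. H2afz, encoding H2A.Z, averaged 50.7 ± 12.0 FPKM and H3f3b, encoding H3.3, 36.1 ± 7.0 FPKM (SD, n = 12 each). H1f0, the linker histone of differentiated cells, was listed at 0 in 4 libraries and lay between 31.4 and 44.2 FPKM in the other 8. None of the 10 passed the adjusted threshold of limma in any comparison.

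Of 20 genes of histone mRNA 3′ end processing and its control, 14 were tested and none passed in any comparison. The highest were the shared Sm proteins Snrpb at 27.3 ± 10.0, Snrpf at 24.8 ± 8.4 and Snrpd3 at 14.5 ± 4.7 FPKM (SD, n = 12 each). Slbp, named after its values were seen, averaged 2.59 ± 0.91 FPKM and was above 0 in all 12 libraries. Lsm11, a subunit specific to the U7 snRNP, averaged 3.48 ± 1.21 FPKM. Of 14 histone chaperones 9 were tested and none passed, with Anp32e at 25.5 ± 1.9, and the FACT subunits Ssrp1 at 18.1 ± 1.7 and Supt16 at 11.1 ± 2.4 FPKM (SD, n = 12 each). Asf1b among the chaperones, and Upf1 and Casp8ap2 among the 20 processing genes, were listed at 0 in all 12.

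Markers of other tissues varied between libraries beside the histone genes. The summed level of 6 pituitary genes ranged from 1.01 to 13419 FPKM in 10-month libraries labelled transgenic, 8.22 to 19.5 in 10-month controls, 0.155 to 53.8 in 3-month libraries labelled transgenic and 1.09 to 7.55 in 3-month controls. Choroid plexus genes, led by Ttr, summed to 31.2 to 439 FPKM in 10-month libraries labelled transgenic, 15.1 to 32.1 in 10-month controls, 5.30 to 303 in 3-month libraries labelled transgenic and 5.24 to 729 in 3-month controls. The sum of 5 blood genes, led by Hba-a1, Hbb-bs and Hbb-bt, ranged from 21.6 to 72.3 FPKM in 10-month libraries labelled transgenic, 12.7 to 35.8 in 10-month controls, 35.4 to 142 in 3-month libraries labelled transgenic and 14.9 to 25.1 in 3-month controls. The blood sums thus did not overlap between the labels at 3 months, where all 4 tested blood genes had a log2 fold change above 0. Of these, 3 had an unadjusted p under 0.05, against 3.39% of all genes tested with limma. None passed the adjusted threshold (lowest limma adjusted p = 0.914). The sum of 3 microglia genes, led by Tmem119 and Cx3cr1, ranged from 7.83 to 15.1 FPKM in 10-month libraries labelled transgenic, 3.18 to 16.2 in 10-month controls, 9.79 to 20.0 in 3-month libraries labelled transgenic and 10.7 to 19.5 in 3-month controls. Their part in the histone values was not tested.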

How the data were processed

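The authors deposited FPKM per gene and library in a separate table for each age, with a fold change as a ratio, its log2 value, p-values and q-values; the deposited table does not state the test behind these. Tools named in the submitters' processing notes are StringTie 1.3.0, HISAT2 2.0.4, SAMtools and R 3.4.2, with builds mm10 and GRCm38; the sources used here do not give the options, the annotation or whether counting used strand. Per the labels, libraries were stranded total RNA depleted of ribosomal RNA. Groups came from the sample titles.

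FPKM were analysed as log2(FPKM + 0.1), which understates changes of low genes. The 9846 genes whose mean reached 1 FPKM in any of the 4 groups entered a limma 3.58.1 fit (R 4.3.3; lmFit, contrasts.fit, eBayes with trend and robust) over all 12 libraries, with Benjamini-Hochberg adjustment over all genes tested and a threshold of 0.05. Calls were checked on simulated data. No read counts were used, so absolute depth is unknown and no counting interval is given. The members, gene lists and tests were chosen with earlier results of these data known. Values in every library were given for the 12 members with the highest mean. For genotype, up to 3 tested members per direction with the smallest p were named, and for the interaction and age up to 2. For each list up to 3 genes with the highest mean were named, and others were named after their values were seen.

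Gene models were taken from GENCODE transcripts (GRCm38), with 68 members matched by ID and 2 by name. Words of 31 bases and motifs were searched with Python 3.11.15. Alternatives were other pseudocounts and filters, size factors, quantile normalization, a replicate block, other variance settings, each age alone, and leaving out each library. Setting 0 to missing, and leaving out each library from the shares of the summed FPKM, were added after the data were seen.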

Additional observations from a re-analysis of the deposited data

How the results depend on the processing

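No histone gene passed the adjusted threshold of limma in any of the 5 comparisons under any of the 23 alternative fits, and the lowest adjusted p of any of them was 0.265. When every gene above 0 in 3 or more libraries entered, 48 of the 70 did, and with a filter at 5 FPKM 3 did. Leaving out each library in turn gave 0 to 0 calls among 8 to 11 tested members. The replicate numbers did not pair the samples: libraries of different groups that share a number had correlations of their deviations from -0.123 to 0.0939, against -0.135 to 0.151 for other numbers, and the replicate block left 0 calls in each comparison, with Hist1h2bg at -2.79 at 3 months.

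Of 23 named differences, 13 kept their sign under every fit run for them. On the log2 scale, leaving out each library in turn gave ranges that crossed 0 for the other 10. For genotype at 10 months they were -3.60 to 0.052 in Hist1h2bc, -0.61 to 0.43 in Hist1h4h, -0.13 to 0.83 in Hist1h4i and -0.50 to 2.84 in Hist3h2a. For genotype at 3 months they were -3.02 to 0.58 in Hist1h1c, -0.36 to 1.36 in Hist1h2bf and -1.35 to 1.73 in Hist3h2a. For age they were -0.28 to 2.96 in Hist1h1c in controls and -3.58 to 0.066 in Hist1h2bc in libraries labelled transgenic, and for the interaction -3.25 to 0.40 in Hist1h2bc. With 0 set to missing, Hist1h2bc became 0.052 for genotype at 10 months, 0.066 for age in libraries labelled transgenic and 0.40 for the interaction, Hist1h1c -0.28 for age in controls, and Hist3h2a -1.35 for genotype at 3 months. Hist1h4h for genotype at 10 months became 0.030 with a pseudocount of 1 and 0.17 with weights per library; the cause was not tested. Without single libraries the Hist3 share of the summed FPKM ranged from 8.41% to 14.2%, and no other class or cluster share moved by over 1.5 times.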
